A study of Mus musculus with 6 samples.

Results

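The genes described here are 8 of the 54109 genes counted in Msc80 cells, a mouse Schwann cell line: the sodium pump beta subunit genes Atp1b1, Atp1b2 and Atp1b3, and the pump regulator genes Fxyd1, Fxyd3, Fxyd5, Fxyd6 and Fxyd7. They were taken from a given list and found by matching Ensembl gene IDs to symbols, and all 8 matched. The list was drawn up with the difference between the groups already known, so the members' own values are a description and carry no test. Messenger RNA was sequenced from 3 control cultures, labelled Sox10 wt, and from 3 Sox10ko cultures, in which the gene of the glial transcription factor Sox10 had been inactivated by CRISPR/Cas9 editing. All were kept in serum-containing medium. The labels name a cell clone for the Sox10ko cultures without saying whether the 3 share 1 clone, and attach the same editing text to the control libraries, so it is not clear whether control cells went through editing or cloning. A difference between clones and the loss of Sox10 therefore cannot be told apart. Replicates are called biological, but separate cultures are not described further, so errors cover only the spread between these samples.

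The sodium pump, or Na,K-ATPase, moves sodium out of a cell and potassium into it at the expense of ATP, and sets the ion gradients on which excitability, cell volume and sodium-coupled transport rest. Its catalytic alpha subunit carries the ions. The glycosylated beta subunit is needed for the pump to reach the membrane and also takes part in adhesion between cells. FXYD proteins are small membrane proteins, named after a short shared sequence motif, that associate with the pump and adjust its affinity for ions. In peripheral nerve, glial pumps help to clear the potassium that axons release.

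The FXYD genes are shown through the bases that encode their shared motif, because this is the feature that makes them a family. Each line gives coding bases 5′ to 3′, read from the GENCODE M21 transcripts of GRCm38, with the 12 bases of the 4 motif codons in capitals and 15 bases before and 33 bases after them in lower case.
Fxyd1: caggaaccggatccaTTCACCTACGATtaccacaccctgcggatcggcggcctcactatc
Fxyd3: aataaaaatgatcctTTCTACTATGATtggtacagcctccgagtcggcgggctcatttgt
Fxyd5: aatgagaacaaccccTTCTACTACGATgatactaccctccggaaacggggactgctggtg
Fxyd6: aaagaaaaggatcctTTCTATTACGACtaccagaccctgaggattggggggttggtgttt
Fxyd7: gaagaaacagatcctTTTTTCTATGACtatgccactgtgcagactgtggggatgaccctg
Over these 60 bases the genes shared between 50% (Fxyd3 and Fxyd7) and 65% (Fxyd1 and Fxyd6) of their bases. Fxyd5 had the longest coding sequence, 185 codons with the motif starting at coding base 406, against 80 to 94 codons in the others with the motif starting between coding bases 52 and 88. Fxyd1, Fxyd3, Fxyd5 and Fxyd7 lie on the minus strand of chromosome 7, Fxyd6 on the plus strand of chromosome 9.

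The libraries held between 32328618 and 41834431 counted reads, and a single read stood for 0.0235 to 0.0299 CPM, the usual read count relative to library size, here after TMM scaling. Group values are means ± SD (n = 3) in CPM. Fold changes are log2 of Sox10ko over control ± SE from a fit across all genes. Sox10 itself fell from 616 ± 10.5 to 88.6 ± 25.1 CPM (edgeR quasi-likelihood test, adjusted p = 0.000186). Of 10 Schwann cell markers, which include Sox10 itself, 9 were lower in Sox10ko, beside 14.7% of all tested genes. The summed level of the 10 was 5075 to 5646 CPM in control libraries and 260 to 472 CPM in Sox10ko libraries. Ngfr (means of 2962 in control and 16.4 CPM in Sox10ko) made up most of the control sum. Most of the Sox10ko sum was L1cam (369 and 235 CPM), the marker that did not pass (edgeR adjusted p = 0.0769). The sum over 6 smooth muscle markers was 178 to 268 CPM in control and 571 to 1076 CPM in Sox10ko. Of the 6, 5 were higher, beside 17.3% of all tested genes. Acta2 and Cnn1, among the 5, would not have been tested on their control values, so the low-count filter set their direction. Most of the sum was Pdgfrb (means of 232 in control and 461 CPM in Sox10ko) and, in Sox10ko, Acta2 (0.144 and 357 CPM). Des went from 0.384 to 18.8 CPM, while Tagln, Cnn1 and Myh11 had means of 1.01 CPM or less. The sum over 7 fibroblast markers was 285 to 334 CPM and 656 to 1908 CPM, with 2 of 4 tested genes higher. It was mainly Col1a1 (means of 177 and 1085 CPM) and Col3a1 (126 and 190 CPM, edgeR adjusted p = 0.0622). Dcn, Lum and Thy1 had means of 0.186 CPM or less. The sum over 7 epithelial markers was 0.146 to 0.271 CPM and 2.95 to 5.13 CPM. Both tested epithelial genes, Krt8 and Krt14, were higher. Neither would have been tested on its control values, so the low-count filter set their direction. Epcam, Cdh1, Krt5 and Cldn4 were under 0.1 CPM in both groups. Over 5 neuronal markers the sum was 89.1 to 100 CPM and 54.5 to 72.3 CPM, with Rbfox3 at 0. Of 4 tested genes 1 was lower, Tubb3 (means of 87.9 and 50.1 CPM), which made up most of the sum. Means of Snap25 (2.1 and 2.88 CPM), Syt1 (5.23 and 11.8 CPM) and Elavl4 (0.423 and 0.643 CPM) were higher in Sox10ko. The edgeR adjusted p of these genes was above 0.05. Over 6 leukocyte and endothelial markers the sum was 7.37 to 9.43 CPM and 10 to 13.6 CPM. Of 4 tested genes 1 was higher and 1 lower. The part of these shifts in the results that follow was not tested, and in bulk RNA fewer cells of a type and less RNA per cell cannot be told apart.

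The 8 genes were far from equally expressed. Atp1b3, Fxyd5 and Fxyd3 had a group mean of at least 5 CPM, whereas Atp1b1, Atp1b2, Fxyd1, Fxyd6 and Fxyd7 stayed under 1.1 CPM on average in both groups. In the fit, 5 of the 8 had enough reads to pass the low-count filter, Fxyd3 only through the control libraries, while Atp1b1, Fxyd6 and Fxyd7 did not pass. Control and Sox10ko values did not overlap in 3 of these 5 genes, beside 49.3% of all 15427 tested genes. Since the members were chosen from this comparison, nothing is read from that count.

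**Figure D1:**
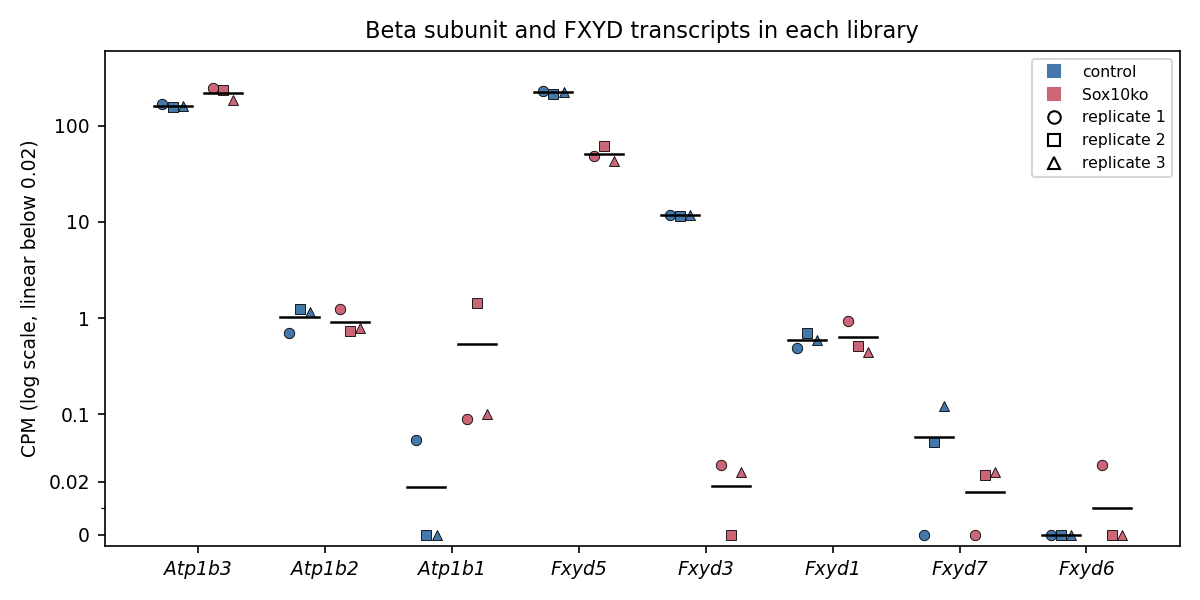
CPM of the 3 beta subunit genes and the 5 FXYD genes in each library (log axis, linear below 0.02 CPM), with control in blue, Sox10ko in red, 1 marker shape per replicate number and a bar at each group mean. Atp1b3 lay higher and Fxyd5 and Fxyd3 lay lower in every Sox10ko library than in any control library, Atp1b2 and Fxyd1 overlapped near 1 CPM, and the 61 Atp1b1 reads of Sox10ko replicate 2 stood apart.

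Among the beta subunits, Atp1b3 (ENSMUSG00000032412, chromosome 9 from 96332655 to 96364442, minus strand, GRCm38) made up nearly all of the transcript. Control replicates 1, 2 and 3 held 168, 157 and 160 CPM, whereas Sox10ko replicates 1, 2 and 3 held 245, 232 and 185 CPM. Each Sox10ko library was above each control library, and Sox10ko replicate 3 was the closest to them. The log2 fold change was 0.45 ± 0.12, from 162 ± 5.55 to 221 ± 31.4 CPM. Divided by exonic length, Atp1b3 accounted for 99.6% ± 0.12 of the beta subunit level in control and 99.6% ± 0.206 in Sox10ko.

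Atp1b2, whose protein was first described as an adhesion molecule of glia, was scarce in this glial line. It stood at 0.704, 1.25 and 1.15 CPM in control (26, 49 and 47 reads) and at 1.23, 0.727 and 0.797 CPM in Sox10ko (41, 31 and 32 reads). The groups overlapped, and the log2 fold change of -0.18 ± 0.34 was smaller than its error.

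Atp1b1, the beta subunit of most epithelia, was close to the floor in 5 libraries. Control replicates 1, 2 and 3 had 2, 0 and 0 reads, and Sox10ko replicates 1, 2 and 3 had 3, 61 and 4. The excess in Sox10ko thus came from replicate 2, at 1.43 CPM. Pooled over libraries, Sox10ko was 34.2-fold higher with a 95% exact counting interval of 9.12 to 288. Without Sox10ko replicate 2 the ratio was 5.56, from 7 reads against 2 (1.06 to 54.9). Atp1b1 shares 575 exonic bases with Nme7 on the opposite strand, which had between 517 and 1044 reads per library, and the counts did not keep strands apart. Without any of the other libraries the ratio lay between 22.2 and 49.2, except that it could not be formed without control replicate 1, which held both control reads.

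Fxyd5, which encodes dysadherin, a pump regulator known for weakening contacts between epithelial cells, was the main FXYD transcript (ENSMUSG00000009687, chromosome 7 from 31032722 to 31042481). Control replicates 1, 2 and 3 held 229, 215 and 222 CPM, whereas Sox10ko replicates 1, 2 and 3 held 48.2, 61.2 and 43.1 CPM. The groups lay far apart, with the highest Sox10ko value in replicate 2. The mean went from 222 ± 6.95 to 50.8 ± 9.32 CPM, a log2 fold change of -2.13 ± 0.14. No gene on the opposite strand shares exonic bases with Fxyd5. Per exonic length, Fxyd5 made up 94.3% ± 0.431 of the summed level of all 7 FXYD genes (Fxyd1 to Fxyd7) in control and 93.2% ± 2.43 in Sox10ko.

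Fxyd3, known from epithelia and their tumours, had the lowest ratio of Sox10ko to control among the 5 members that passed the filter. Control replicates 1, 2 and 3 held 435, 447 and 486 reads (11.8, 11.4 and 11.9 CPM) and Sox10ko replicates 1, 2 and 3 held 1, 0 and 1. Control libraries differed by little, and Sox10ko libraries were at the detection floor. The ratio of control to Sox10ko was 680 with a 95% exact counting interval of 188 to 5617, and 430 without Sox10ko replicate 2. It made up 4.29% ± 0.0637 of the FXYD level in control.

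These Fxyd3 reads cannot be assigned to Fxyd3 alone. Fxyd3 (chromosome 7 from 31068172 to 31076704, minus strand) runs into Lgi4 (31059342 to 31070935, plus strand), the gene of a secreted Schwann cell factor. Of its 4850 exonic bases, 2059 also belong to exons of Lgi4, 705 lie in introns of Lgi4 and 2086 lie beyond the annotated end of Lgi4. Counting that ignores strand leaves out reads that lie under exons of more than a single gene. The counts bear that mark: among 195 genes whose every exonic base lies under exons of opposite-strand genes with at least 1000 reads, 192 had 0 reads. Of the 19 protein-coding genes among them 18 had 0 reads, against 19.1% of all protein-coding genes. Lgi4 held 5171, 6582 and 6730 reads in control and 40, 13 and 81 in Sox10ko (edgeR adjusted p = 0.000194). Fxyd3 reads therefore amounted to 8.41%, 6.79% and 7.22% of Lgi4 reads in control replicates 1, 2 and 3, and to 2.5%, 0% and 1.23% in Sox10ko replicates 1, 2 and 3. Pooled, Fxyd3 made up 6.89% of the reads of both genes in control (95% exact interval 6.54% to 7.25%) and 1.47% in Sox10ko (0.179% to 5.21%).

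Fxyd1, which encodes phospholemman, the regulator of the pump in heart and muscle, was detected at a low level in all 6 libraries. It stood at 0.488, 0.691 and 0.585 CPM in control and at 0.928, 0.516 and 0.448 CPM in Sox10ko. Sox10ko replicate 1 was the highest library and replicate 3 the lowest, so the control values lay inside the Sox10ko range. The log2 fold change was 0.09 ± 0.37. Because Fxyd5 was lower, the share of Fxyd1 in the FXYD level per exonic length was 0.480% ± 0.0964 in control and 2.25% ± 0.966 in Sox10ko.

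Fxyd7, a regulator known from brain, and Fxyd6, known from brain and inner ear, were close to absent. Control libraries held 0, 2 and 5 reads of Fxyd7, and Sox10ko libraries 0, 1 and 1. The pooled ratio of control to Sox10ko was 3.48, with a 95% exact counting interval of 0.662 to 34.3, and it was 1.53 without control replicate 3. Fxyd6 had 0 reads in the controls and 1 read in Sox10ko replicate 1. A count of 0 over the 3 controls allows a level of up to 0.0256 CPM, and both groups were at or under the floor of 3 counts.

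Set in order of CPM per kilobase of exon, the control libraries ranked Atp1b3 (67.7 ± 2.32) above Fxyd5 (53.0 ± 1.66) and Fxyd3 (2.41 ± 0.0458). Fxyd1 (0.269 ± 0.0465) and Atp1b2 (0.253 ± 0.0713) followed and differed by less than their spread. Fxyd7, Atp1b1 and Fxyd6 closed the order, at 0.0833 ± 0.0884 CPM per kilobase or less. In Sox10ko, Atp1b3 (92.3 ± 13.1 CPM per kilobase) stood far above Fxyd5 (12.1 ± 2.22). Fxyd1 (0.288 ± 0.119), Atp1b2 (0.224 ± 0.0663) and Atp1b1 (0.175 ± 0.25) did not differ beyond their spread there. Fxyd7, Fxyd3 and Fxyd6 were at 0.0233 ± 0.0202 CPM per kilobase or less. Exonic length is the union over all annotated transcripts, which lowers the value of genes with long unused exons.

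Summed over genes, the beta subunits stood higher and the FXYD genes lower in each Sox10ko library than in any control library. The beta genes together were at 70.5, 66.2 and 67.2 CPM per kilobase in control replicates 1, 2 and 3, and at 103, 97.7 and 77.7 in Sox10ko replicates 1, 2 and 3. The FXYD genes together were at 57.6, 54.5 and 56.5 CPM per kilobase in control and at 12.7, 15.2 and 11.1 in Sox10ko. Neither sum overlapped between groups, and Sox10ko replicate 3 was the lowest of its group in both. The ratio of FXYD to beta was 0.817, 0.824 and 0.840 in control and 0.123, 0.156 and 0.142 in Sox10ko. Leaving Fxyd3 out gave a mean ratio of 0.792 in control and 0.140 in Sox10ko. The sums also hold the non-members Fxyd2, Fxyd4 and Atp1b4 at low levels, rest mostly on chosen members and carry no test.

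**Figure D2:**
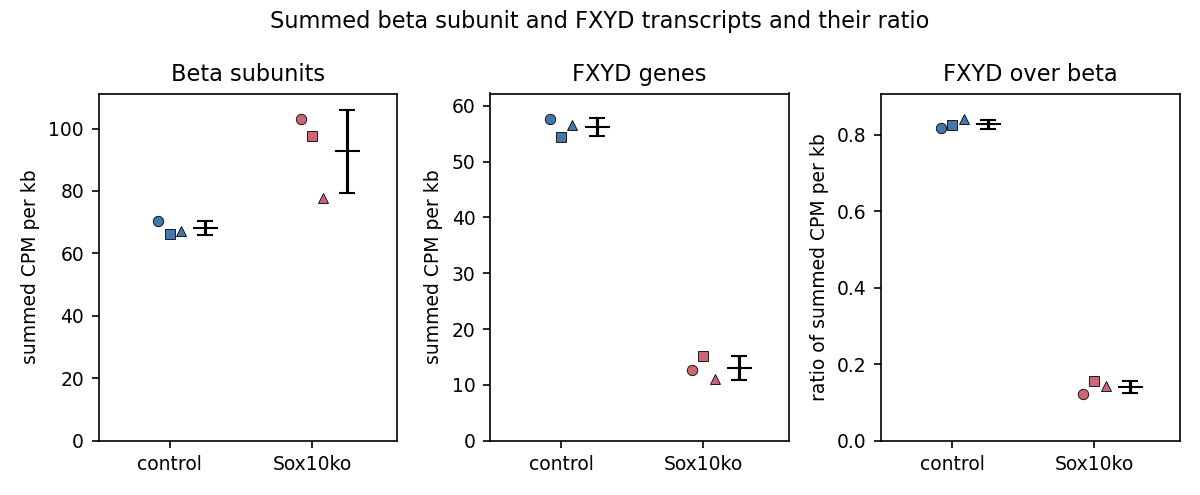
Summed CPM per kilobase of exon of the beta subunit genes (left) and the FXYD genes (middle), and their ratio (right), in each library (points: circle, square and triangle for replicates 1, 2 and 3; blue control, red Sox10ko), with mean ± SD of n = 3 beside them. The beta sum went from a mean of 68.0 to 92.7, the FXYD sum from 56.2 to 13.0 and the ratio from 0.827 to 0.140.

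Of 7 further genes of the proton and sodium pump and FXYD families, only Fxyd4, a regulator known from kidney, had enough reads to be tested. It stood at 0.910 ± 0.155 CPM in control and 1.06 ± 0.330 CPM in Sox10ko and did not pass (log2 fold change 0.21 ± 0.32, edgeR adjusted p = 0.653). Of all 15427 tested genes 32.0% passed, 17.3% as higher and 14.7% as lower (2869 genes in place of 4939 without control replicate 3). Atp1a4, Atp1b4, Fxyd2 and the gastric proton pump genes Atp4a and Atp4b were not tested. Atp12a, a non-gastric proton pump gene that was not tested either, was seen with 1 control read and 20 Sox10ko reads. The ratio was 20.1, with a 95% exact counting interval from 3.22 to 834, and 13.1 without control replicate 3. Without control replicate 2, which held the control read, no ratio could be formed. Atp12a shares 557 exonic bases with a predicted gene on the opposite strand, which held 1 read over all libraries.

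The 4 FXYD genes of chromosome 7 lie in a cluster, and their neighbours differed among themselves. Of 5 tested non-member genes within 200 kb, 1 was lower in Sox10ko and 0 were higher, by edgeR, DESeq2, limma-voom or an unadjusted edgeR p under 0.05. This was Lgi4, which lies between Fxyd1 and Fxyd3 and fell 135-fold (220-fold without Sox10ko replicate 3). Fxyd1, 2.14 kb from Lgi4, had the overlapping values given above. Usf2, Lsr and Gramd1a did not pass, with edgeR adjusted p of 0.207, 0.610 and 0.124. Around all 8 members together, 8 of 29 tested neighbours passed (3 higher, 5 lower), a share of 27.6% beside 32.0% over all genes. Scaled by library size alone, 5 neighbours were higher and 2 lower, so the more frequent direction turned with the scaling. Without control replicate 1 or 3 the count was 5 or 4.

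**Figure D3:**
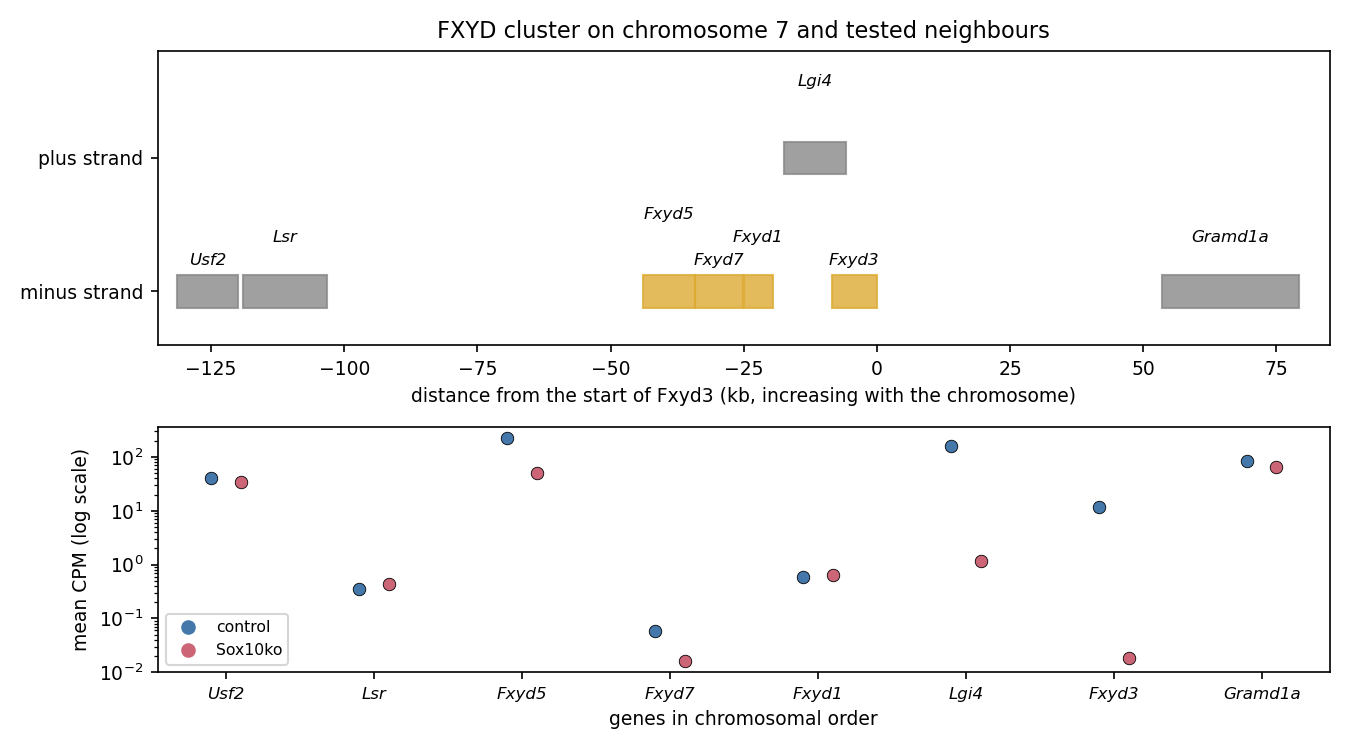
Top, gene bodies by strand around Fxyd3, in kb from its start, with FXYD genes in yellow and tested named neighbours in grey. Bottom, mean CPM of each gene in control (blue) and Sox10ko (red) on a log axis; Lgi4 (158 and 1.17 CPM), Fxyd3 (11.7 and 0.0183 CPM) and Fxyd5 (222 and 50.8 CPM) were lower in Sox10ko, while Fxyd1 (0.588 and 0.631 CPM) lay between them and differed by less than its spread.

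Around the beta subunit genes, calls varied from gene to gene. On chromosome 1, Nme7, which overlaps Atp1b1, was 1.40-fold lower and Blzf1, 130 kb away and itself sharing exonic bases with Nme7 on the opposite strand, was 1.34-fold lower (edgeR adjusted p = 0.0430 and 0.0365). The call of Nme7 was lost without any single library other than control replicate 2, and that of Blzf1 without control replicate 1 or 3 or Sox10ko replicate 1 or 3. On chromosome 11, beside Atp1b2, the tumour suppressor gene Trp53 lies 7.86 kb away and was 1.25-fold lower (edgeR adjusted p = 0.0382), a call that was lost without any library but Sox10ko replicate 1. Sat2, a polyamine acetyltransferase relative 16.1 kb away, rose 2.30-fold (edgeR adjusted p = 0.0109), while Wrap53 and Fxr2 did not pass (edgeR adjusted p = 0.853 and 0.537). On chromosome 9, 0 of 4 tested neighbours of Atp1b3 passed with edgeR, and 2 had an unadjusted p under 0.05, while DESeq2 called 1 of them and limma-voom 0. The edgeR adjusted p was 0.0716 for Tfdp2, 0.0702 for Rasa2, 0.202 for Gk5 and 0.861 for Rnf7. Rasa2 (1.54-fold lower) was the gene that DESeq2 called, at an adjusted p of 0.0269, and it also passed with edgeR without Sox10ko replicate 1 or with no low-count filter (adjusted p of 0.00570 and 0.0205). Tfdp2 passed with edgeR when scaled by library size alone or filtered at a mean of 5 CPM (adjusted p of 0.0454 and 0.0425). No neighbour of Fxyd6 had enough reads to be tested.

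Promoter sequence is shown for Fxyd3 and Fxyd1, neighbours in the same cluster of which the first was lower in every Sox10ko library and the second overlapped between groups. The bases before the RefSeq start (GRCm38.p6, minus strand) that lie in no annotated exon are given 5′ to 3′. Capitals mark matches to ACAAAG or ACAATG on either strand, 2 forms of the core to which SOX proteins are known to bind. Other forms of that core were not searched and stay in lower case, so 0 matches covers these 2 forms only.
Fxyd3, chr7:31076705-31076947: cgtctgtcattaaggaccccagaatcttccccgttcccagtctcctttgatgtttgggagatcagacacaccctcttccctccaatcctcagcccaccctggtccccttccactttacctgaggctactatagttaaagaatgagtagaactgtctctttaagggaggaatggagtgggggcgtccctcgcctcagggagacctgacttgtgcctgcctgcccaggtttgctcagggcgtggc
Fxyd1, chr7:31054854-31055103: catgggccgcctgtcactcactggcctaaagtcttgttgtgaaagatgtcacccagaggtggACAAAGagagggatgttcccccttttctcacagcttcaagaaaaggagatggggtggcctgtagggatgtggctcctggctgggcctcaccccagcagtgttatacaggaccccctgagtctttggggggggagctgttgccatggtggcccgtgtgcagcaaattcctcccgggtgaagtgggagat
In windows of 300 bases (250 before the start and 50 after it), 28.6% of 32851 promoters in the RefSeq table held at least 1 match, 18.7% for ACAAAG and 12.6% for ACAATG. The Fxyd1 window held 1 match, starting 188 bases before the start, and those of Fxyd3, Fxyd5 and Fxyd6 held 0. The Atp1b1 window and 1 of the 2 Atp1b3 windows held 1 match each. Fxyd7 and Atp1b2 had no window in the table. A match or its absence in these windows describes the letters and says nothing about binding.

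Among proteins that bind or regulate the pump, 5 of 14 tested genes were lower and 1 was higher in Sox10ko (42.9% passing, beside 32.0% over all tested genes; median log2 fold change -0.22, beside 0.02). Ank3, the gene of ankyrin-G, an adaptor that ties the pump and channels to the membrane skeleton, was 4.63-fold lower, at 418 ± 113 in control and 90.4 ± 12.9 CPM in Sox10ko (edgeR adjusted p = 0.000540). Nedd4l, a ubiquitin ligase of sodium transport proteins, was 4.35-fold lower, at 489 ± 115 in control and 112 ± 11.6 CPM in Sox10ko (edgeR adjusted p = 0.000375). It shares 277 exonic bases with a predicted gene on the opposite strand. Agrn (agrin), a matrix protein of synapses that is known to act on the pump, went from 671 ± 49.3 to 284 ± 15.9 CPM (edgeR adjusted p = 0.000257). Nkain1, whose protein interacts with the beta subunit, fell 2.29-fold (edgeR adjusted p = 0.00555). Cav1, encoding caveolin-1, which binds the pump, went the other way from 369 ± 31.8 to 959 ± 363 CPM (edgeR adjusted p = 0.00888).

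Of 11 tested genes of other P-type ATPases, 2 were higher and 1 was lower in Sox10ko (27.3% passing, beside 32.0% over all tested genes; median log2 fold change -0.05). Atp2a3, a calcium pump of the endoplasmic reticulum, rose 18.8-fold, with 0.411 ± 0.133 CPM in control and 7.78 ± 4.33 in Sox10ko (edgeR adjusted p = 0.000939). Atp2b4, a calcium pump of the plasma membrane, fell from 169 ± 42.1 to 72.3 ± 13.9 CPM (edgeR adjusted p = 0.00540). Atp7b, a copper pump, rose 7.65-fold to 0.795 ± 0.402 CPM (edgeR adjusted p = 0.00691), but would not have been tested on its control values. In this list 5 genes passed, in place of 3, without Sox10ko replicate 2. Among 27 tested genes of sodium entry and exchange, 6 passed as higher and 3 as lower (33.3% passing, beside 32.0% over all tested genes; median log2 fold change 0.29). Scn3a and Scn10a, among the 6, met the low-count filter through Sox10ko alone and Scn7a, among the 3, through control alone, so the filter set their direction.

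Sodium channel genes were among the sodium entry genes that differed most. Scn2a, at 17.5 ± 3.51 CPM in Sox10ko, rose 5.36-fold (edgeR adjusted p = 0.000491). Scn3a, which was tested only because of its Sox10ko values, stood at 0.0847 ± 0.0265 CPM in control and 2.59 ± 1.02 CPM in Sox10ko. Scn8a, known as the channel of the node of Ranvier, fell 6.59-fold from 17.8 ± 7.5 CPM (edgeR adjusted p = 0.00345). Scn10a had 0 control reads and was at least 128-fold higher in Sox10ko taking 3 reads in the 3 controls together as the floor (at least 70.8-fold without Sox10ko replicate 3). Slc4a8, a sodium-driven bicarbonate exchanger, fell 4.85-fold and the sodium-proton exchanger gene Slc9a9 rose 5.24-fold (edgeR adjusted p = 0.000392 and 0.00256). Asic3, an acid-sensing sodium channel gene, rose 3.94-fold from 0.953 ± 0.146 to 3.76 ± 1.15 CPM (edgeR adjusted p = 0.00290).

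**Figure D4:**
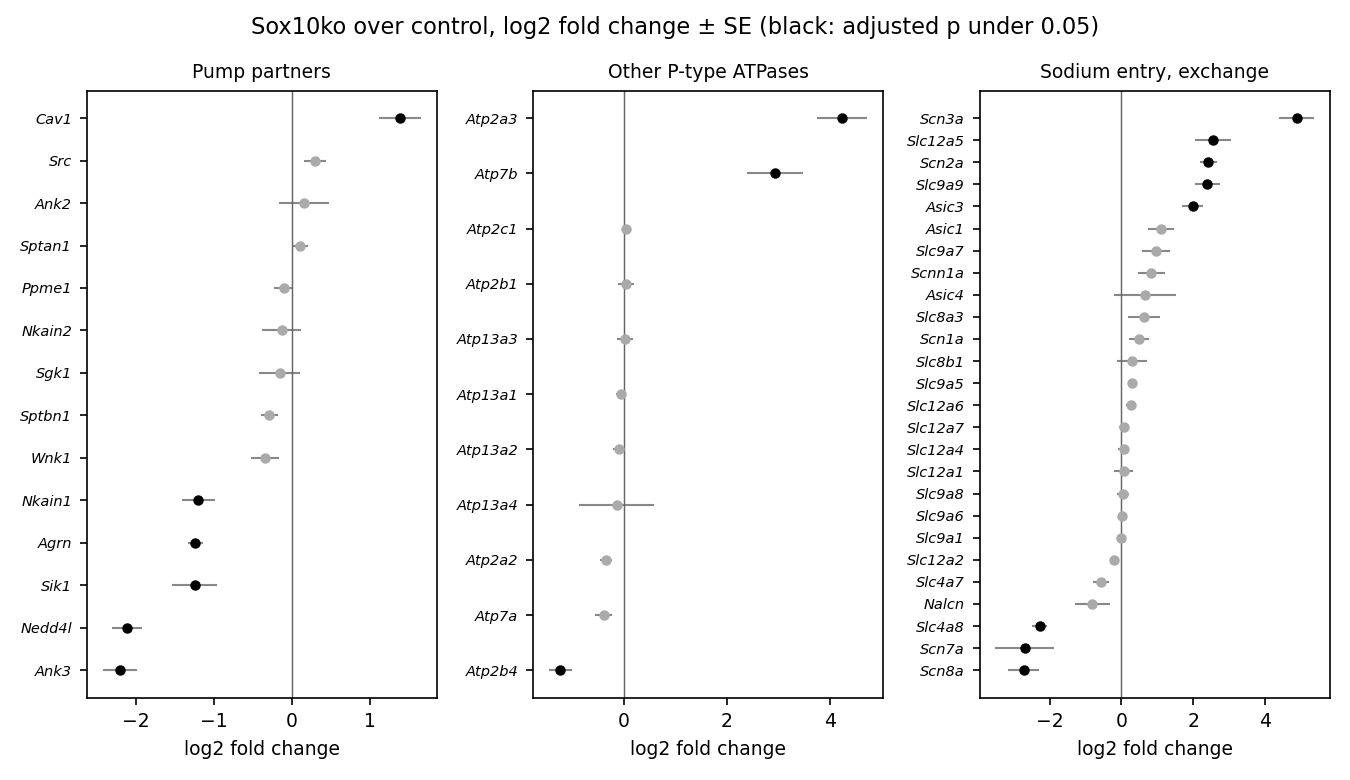
Log2 fold change of Sox10ko over control ± SE (x axis) for the tested genes of 3 lists that hold no member, with genes past an adjusted p of 0.05 in black. Scn10a, with 0 control reads and 381 in Sox10ko, is not drawn; pump partners had 5 of their 6 passing genes below 0, and sodium entry genes had 5 drawn passing genes above 0 and 3 below.

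The genes whose pattern over the 6 libraries was closest to that of each abundant member were found by the Euclidean distance between centred log2 CPM profiles, among tested genes that averaged 5 CPM or more. For Fxyd5 they were Sox2, a transcription factor of immature glia (216 and 46.8 CPM in control and Sox10ko), the adhesion receptor gene Adgrl3 (96.3 and 21.7 CPM) and the semaphorin gene Sema6b (42.1 and 9.63 CPM), at distances of 0.253, 0.329 and 0.347. For Atp1b3 they were the mitochondrial carrier gene Slc25a40 (28.9 and 39.5 CPM), Map1s (31.2 and 41.2 CPM) and Tm2d3 (15.9 and 22.1 CPM), at distances of 0.126, 0.130 and 0.144. For Fxyd3 they were Erbb3, the neuregulin receptor gene of Schwann cells (423 and 2.6 CPM), Tmem132e (24.0 and 0.0961 CPM) and the potassium channel gene Kcna1 (23.6 and 0.0444 CPM), at 0.605, 0.631 and 1.04. All profiles share the same 6 libraries, and for Fxyd3 the distance depends on the pseudocount of 0.05 CPM.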

How the data were processed

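The deposited data are whole-number read counts per Ensembl gene ID, 1 table per library. The submitters' processing notes name mm10 (GRCm38), HTSeq, DESeq2 and STAR 2.6.0c. What each did, the annotation release and the strand setting are not given here in the sources used. Libraries were made with a stranded kit, per the labels' protocols. Symbols and coordinates (GENCODE M21) matched 54042 of 54109 IDs.

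With edgeR 4.0.16 in R 4.3.3, low counts were removed by filterByExpr, libraries were scaled by TMM, and 3 were compared with 3 by the quasi-likelihood F test, two-sided, with Benjamini-Hochberg adjustment over 15427 genes and a threshold of 0.05. The SE was taken from the F statistic. The steps were tested on simulated data. Where a group had 1 to 3 reads, the ratio of pooled CPM is given with an exact (Clopper-Pearson) 95% interval. The labels name no molecular identifiers, so intervals and floors cover counting error only. Levels between genes were compared per kilobase of exon.

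The members and lists were chosen with earlier results of these data known. Named were Sox10, the members, other pump family genes, from each other list the 5 passing genes of lowest adjusted p or fewer and as many as 2 passing against its direction, passing neighbours within 200 kb of the FXYD cluster, the 2 nearest tested neighbours on each side of other members, and the 3 genes nearest in pattern; Usf2, Lsr, Gramd1a, Scn10a and Scn7a were named after their values were seen. Alternatives were DESeq2 1.42.0, limma-voom (limma 3.58.1), DESeq2 size factors, library size alone, other low-count filters, a replicate block and leaving out each library. Some genes are not reported here and were left out of the lists, neighbours and sums. Leaving out Fxyd3, or genes that overlap an opposite-strand exon, was chosen after seeing the data.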

Additional observations from a re-analysis of the deposited data

How the results depend on the processing

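The log2 fold changes of Fxyd1, Fxyd5, Atp1b2 and Atp1b3 moved by less than the spread between replicates under the other models, scalings and filters. The filter at a mean of 5 CPM gave no value for Fxyd1 and Atp1b2. Leaving out 1 of 3 libraries can hardly move a mean by more than that spread, so those runs are given as ranges only. With a library left out Fxyd5 ranged from -2.29 to -2.03 and Atp1b3 from 0.36 to 0.55. Their groups did not overlap, so leaving out a library could hardly turn their direction. Fxyd1 ranged from -0.29 to 0.27 and Atp1b2 from -0.45 to -0.04. The ratio for Fxyd3 ranged from 430 to 968 and that for Atp1b1 from 5.56 to 49.2. Over all genes 4939 passed, and 2869 (without control replicate 3) to 4681 with a library left out. The count was 5690 with DESeq2, 4859 with limma-voom and 3537 with a replicate block. It was 5445 of 31218 genes with no low-count filter and 3375 of 10235 with a filter at a mean of 5 CPM. Of the other pump family genes 0 passed with edgeR, and 1 with no low-count filter. For other P-type ATPases the count of 3 was 1 with a filter at a mean of 5 CPM, and 3 to 5 with a library left out (5 without Sox10ko replicate 2). For sodium entry genes that filter left 4 of 9. Of the neighbours, 8 passed, 5 with that filter, 4 with a replicate block, 4 to 9 with a library left out, and 21 of 100 within 500 kb. Without length correction the Fxyd5 share was 96.6% in Sox10ko, the Atp1b3 share 99.3% and 99.4%, and FXYD per beta 1.45 in control and 0.237 in Sox10ko. FXYD per beta was 0.792 in control without Fxyd3. The cause of these moves was not tested, apart from those of the filters and windows, which change the genes tested. The replicate numbers gave no sign of pairing. Deviations of same-numbered libraries correlated at -0.214, -0.0997 and 0.0738, and those of differently numbered libraries at -0.12 to 0.192. With 3 libraries per group, such correlations cannot show that no batch was shared. At this depth Fxyd6, Fxyd7 and Atp1b1 had too few reads to be tested.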
